A study of Homo sapiens with 4 samples.

Results

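The genes described here act in homologous recombination and in neighbouring DNA repair and damage checkpoint pathways. They are members of a list of 37 gene symbols, which were looked up by name in a table of expression values. The 37 symbols matched 38 of the 20329 gene entries that could be used, because ATRIP is listed under a pair of identifiers. Of these, 37 entries, 1 per symbol, passed the filter on low expression along with 13928 genes in all. The entry that did not pass was the second one for ATRIP (ENSG00000282827.1), which held under 1 FPKM in every library (0.181 to 0.715 FPKM).

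Homologous recombination repairs a broken chromosome by copying the intact sister chromatid. The MRE11-RAD50-NBN complex binds the break, RBBP8 (CtIP), EXO1 and the helicases BLM and WRN trim the ends to single strands, and BRCA1, PALB2 and BRCA2, with RAD51C, XRCC2 and XRCC3, prepare those strands for the search for the intact copy. The kinases ATM and ATR signal the damage, the Fanconi anemia proteins act at crosslinks between strands, and the Ku proteins, PRKDC, XRCC4 and LIG4 rejoin ends without a template. Many of these genes are transcribed most strongly in cells that replicate their DNA, through E2F factors, and tumours that lose BRCA1 or BRCA2 depend on PARP1.

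The measurements were made in BM1 and LM2, cell lines derived from bone and lung metastases of MDA-MB-231, a triple-negative human breast cancer line. Each line carried a stably expressed lentiviral shRNA, either a non-specific one (control) or one against hnRNPM, an RNA-binding protein that regulates splicing (knockdown). All cells grew in DMEM with serum. Each line and treatment is 1 library of polyadenylated RNA from 1 stable culture, so no replicate checks a difference within a line. The sources used here do not give the shRNA sequence. Levels in the 4 libraries are listed in the same order throughout: the control and then the knockdown of BM1, followed by the control and then the knockdown of LM2.

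HNRNPM itself stood at 171, 28.4, 132 and 20.3 FPKM, so 16.6% of its level was left in the BM1 knockdown and 15.4% in the LM2 knockdown. FPKM, fragments per length of gene model and per mapped fragments, is already scaled for gene length and library size. Depth read from the low values was 0.729, 1.33 and 0.873 for the other 3 libraries when the BM1 control was set to 1. Mitochondrial genes held 9.31%, 12.8%, 8.80% and 11.8% of the summed FPKM, more in each knockdown than in its control. Of the markers of the line, ERBB2 stood at 13.5 to 21.9 FPKM, and VIM, CD44 and AXL together held 1567 to 2883 FPKM. ESR1 and PGR were not found by name among the gene entries. Of 7 markers of other cell types 3 had values, and they summed to 3.40, 14.5, 30.5 and 78.9 FPKM, mostly COL1A1. PTPRC, CD3E, PECAM1 and DCN were likewise not found by name. The part of depth, mitochondrial share and these markers in the results below was not tested.

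Promoter sequence is shown first because several of these genes are textbook targets of E2F factors. RefSeq promoters on GRCh38.p14, from 250 bases before to 50 after the start of the gene, were found for 31 of the 37 genes. They were searched on both strands for the 8-base E2F-like sites TTTCCCGC, TTTCGCGC, TTTGCCGC and TTTGGCGC. A site was present in 7 of the 31 promoters (22.6%), against 3.99% of 27305 genes with such a promoter. Those 27305 genes were not filtered on expression in these libraries, as the 37 were. The 7 sites are given below 5′ to 3′ on the strand of the gene with up to 11 bases on either side, and capitals mark the site, which reads as its reverse complement where it begins with G.
EXO1, chr1:241848197-241848226, plus strand: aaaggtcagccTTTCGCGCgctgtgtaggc
XRCC2, chr7:152676102-152676131, minus strand: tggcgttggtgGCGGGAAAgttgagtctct
TOPBP1, chr3:133661930-133661959, minus strand: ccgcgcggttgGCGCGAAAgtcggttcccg
FANCA, chr16:89816801-89816830, minus strand: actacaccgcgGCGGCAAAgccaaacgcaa
FANCD2, chr3:10026424-10026453, plus strand: cgtcgggcctgGCGGGAAAgtcgaaaacta
XRCC6, chr22:41621326-41621344, plus strand: gtcgcttccctGCGCCAAA
MSH6, chr2:47783137-47783166, plus strand: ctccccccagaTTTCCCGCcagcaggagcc

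The sites of EXO1, TOPBP1, FANCD2 and MSH6 lay within 10 bases of the RefSeq start of the gene, and that of FANCA began at position -172 from it. A match of letters is a description of these windows and not evidence that a factor binds there. Genes with a site had average knockdown changes from -0.48 (FANCA) to 0.79 (TOPBP1) on the log2 scale, with a median of -0.20, and the 24 genes with a promoter but no site ranged from -1.22 to 1.20 with a median of 0.07. The range of the genes with a site lay inside that of the others, and no gene with a site passed the test described next. A range of 7 genes tends to be narrower than one of 24, and only 2 of the 37 passed. Neither point says whether a site matters. Genes with and without a site had median changes of -0.01 and 0.52 in BM1 and -0.15 and -0.15 in LM2. With the first T of the site left off, 15 of the 31 promoters matched (48.4%, against 15.3%). The median average change of these genes was -0.26, against 0.28 for the 16 without a match. These differences were not tested.

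The first question was how these genes stood after hnRNPM knockdown in both lines. Over both lines, 2 of the 37 genes passed the test (5.41%), where 5.47% of all 13928 genes did, so the share was that of the background. MDC1, the scaffold that binds phosphorylated histone H2AX beside a break, fell, and LIG4, the ligase that closes breaks in end joining, rose. The test was limma on log2(FPKM + 1) with a term for the line, at a Benjamini-Hochberg adjusted p under 0.05. At an unadjusted p under 0.05 there were 9 of the 37 (24.3%), against 24.9% of all genes. With 1 residual degree of freedom per gene the calls rest on the spread borrowed from other genes, and both were lost when any library was left out, which also leaves the line out of the fit. They were also lost with no filter, with a pseudocount of 0.1, with quantile normalization, with FPKM rescaled without mitochondrial genes and with no pairing of the libraries by line.

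MDC1 (chr6:30667584-30685666 on the minus strand in the coordinates of the deposited table, GRCh37 per the submitters' processing notes) stood at 16.05, 6.29, 10.6 and 4.01 FPKM. Both knockdown libraries lay below both controls, with 39.2% of the control level left in BM1 and 37.7% in LM2. The average change was -1.22 ± 0.25 (SE) on the log2(FPKM + 1) scale, adjusted p = 0.0317, and the adjusted p ran from 0.0209 to 0.755 over the alternatives. An antisense gene, MDC1-AS1, overlaps it, and the sources used here do not say whether the quantification used the strand. LIG4 (chr13:108859787-108870716, minus strand) stood at 1.72, 7.10, 4.01 and 7.90 FPKM. Both knockdown libraries lay above both controls, and the BM1 control was the lowest of the 4. Its average change was 1.20 ± 0.28, adjusted p = 0.0452 (0.0320 to 0.799 over the alternatives), and with the trend over GC content and transcript length removed it was 0.82, adjusted p = 0.0885. No other listed gene overlaps LIG4, which holds for 16 of the 37 genes.

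PRKDC and PARP1 lay outside the threshold. PRKDC, the catalytic subunit of the DNA-dependent protein kinase, stood at 40.8, 23.5, 62.2 and 24.4 FPKM. Its average change was -1.04 ± 0.27, adjusted p = 0.0589. It passed with the GC and length trend removed (0.0446), with a filter at a mean of 5 FPKM (0.0434) and with limma-trend (0.0384). The limma adjusted p was further from the threshold with a pseudocount of 0.1 (0.146), with no filter (0.224) and with no pairing by line (0.381). PARP1, which senses single-strand breaks, stood at 78.0, 40.0, 86.5 and 49.4 FPKM, an average change of -0.87 ± 0.25 with an adjusted p of 0.0813. For PARP1 it was 0.0476 with limma-trend, 0.167 with a pseudocount of 0.1, 0.220 with no filter and 0.394 with no pairing. For both genes the 2 knockdown libraries lay below the 2 controls, with 57.7% (PRKDC) and 51.3% (PARP1) of the control level left in BM1 and 39.2% and 57.1% in LM2. FANCM, a DNA translocase of the Fanconi anemia core, had the highest average change after LIG4 (0.93 ± 0.29, adjusted p = 0.0976), at 1.06, 4.27, 2.41 and 3.84 FPKM. At these low levels the added 1 FPKM makes the log2 value understate the ratio.

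The direction was shared by both lines at 1.5-fold or more in 4 of the 37 genes, PARP1, PRKDC, MDC1 and LIG4 (10.8%, against 13.4% of all genes). In 8 genes both knockdown libraries lay below both controls (21.6%, against 22.6%), namely PARP1, PRKDC, MDC1, CHEK1, CHEK2, MSH6, XRCC6 and FANCD2. In 7 genes both lay above both controls (18.9%, against 21.8%), namely LIG4, XRCC4, FANCM, BRCA2, PALB2, TOPBP1 and RAD50. These shares are near those of all genes.

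**Figure D1:**
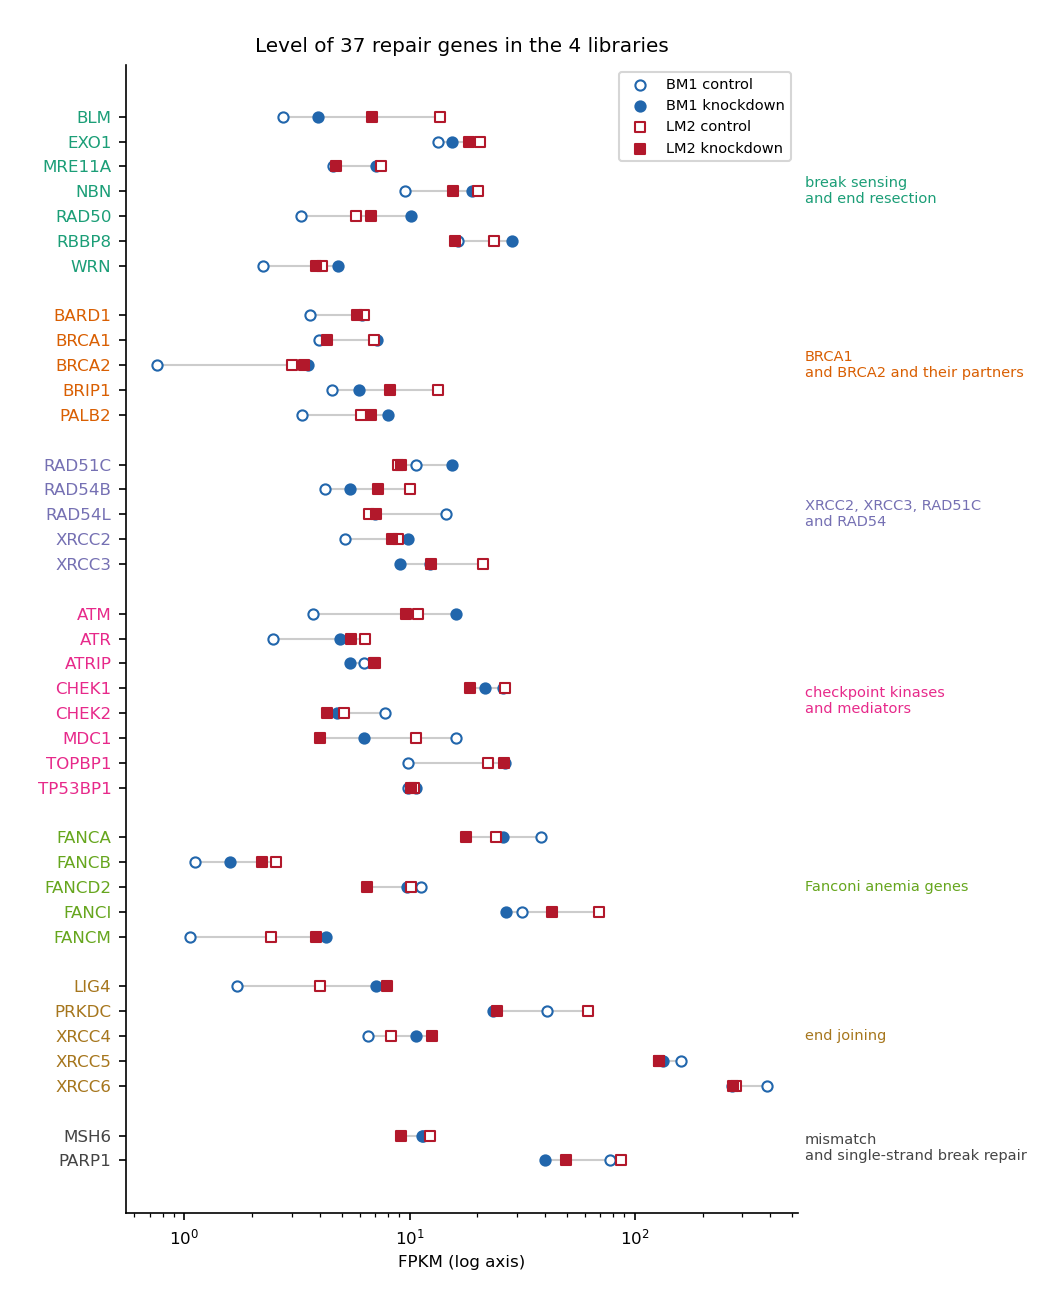
FPKM (log axis) of the 37 genes in each of the 4 libraries, 1 point per library, with the genes grouped by role and no error bar since each group is 1 library. The BM1 control point is the lowest of the 4 in 21 of the 37 genes, and XRCC6 and XRCC5 lie above all others.

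The levels of the 37 genes spanned a wide range on this length-scaled measure. The Ku subunits stood highest, with XRCC6 (Ku70) at 388, 270, 281 and 272 FPKM. XRCC5 (Ku80), its partner, stood at 160, 133, 129 and 128 FPKM, and for both the BM1 control was the highest library. PARP1 came next, and FANCI and PRKDC followed it by mean level. BRCA2 and FANCB were among the lowest, at 0.752 to 3.55 FPKM and 1.11 to 2.54 FPKM. The summed level of the genes was 967, 828, 978 and 807 FPKM, lower in each knockdown than in its control, and XRCC6, XRCC5 and PARP1 make up most of it.

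Within BM1, 8 of the 37 genes (21.6%) differed by 2-fold or more between the knockdown and the control, against 16.3% of all genes. There were 7 higher (18.9%, against 10.1%) and 1 lower (MDC1, 2.70%, against 6.2%). The 7 higher genes were ATM, LIG4, RAD50, BRCA2, FANCM, TOPBP1 and PALB2. Within LM2, 2 genes (MDC1 and PRKDC) were lower by 2-fold or more (5.41%, against 4.24%) and none was higher (against 3.83%), where 8.06% of all genes passed 2-fold in either direction. At 1.5-fold, 15 of the 37 genes were higher (40.5%, against 21%) and 5 lower (13.5%, against 16.8%) in BM1, in all 54.1% against 37.8%. In LM2 the same rule gave 1 higher (2.70%, against 10.7%) and 7 lower (18.9%, against 13.9%), in all 21.6% against 24.5%. The median change of the 37 genes was 0.33 in BM1 and -0.15 in LM2, beside 0.00 and -0.04 over all genes tested. Counted by sign alone, 23 of the 37 genes were higher in the BM1 knockdown (62.2%, against 50.3% of all genes, with 49.7% lower) and 10 in the LM2 knockdown (27.0%, against 46.5%, with 53.5% lower). These shares over all genes are the background for the counts in the groups of genes that follow.

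Of the genes that sense and resect breaks, 7 of 7 were higher in the BM1 knockdown (median 0.77) and 6 of 7 were lower in the LM2 knockdown (median -0.34). None of the 7 passed the test over both lines, and with the trend over GC content and transcript length removed 4 of 7 were higher in BM1 (median 0.26). RAD50, an ATPase that holds broken ends together, stood at 3.30, 10.2, 5.79 and 6.74 FPKM. Its nuclease partner MRE11A stood at 4.56, 7.11, 7.50 and 4.71 FPKM, and the remaining subunit, NBN, stood at 9.58, 18.9, 20.1 and 15.7 FPKM. Listed genes overlap each of them, so their values are uncertain. These are TH2LCRR for RAD50, RP11-685N10.1 (same strand) and ANKRD49 for MRE11A, and DECR1 for NBN. For all 3 genes of the complex the BM1 control was the lowest library, while the highest was the BM1 knockdown for RAD50 and the LM2 control for the other two.

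RBBP8, which starts resection with MRE11, stood at 16.3, 28.5, 23.8 and 15.9 FPKM. It is overlapped by MIR4741 and RP11-739L10.1, so its values are uncertain too. BLM, the helicase mutated in Bloom syndrome, stood at 2.73, 3.91, 13.7 and 6.82 FPKM. The control libraries of the 2 lines were thus further apart for BLM than the knockdown ones. EXO1 stayed between 13.4 and 20.5 FPKM in all 4 libraries, and WRN between 2.22 and 4.79 FPKM.

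Of BRCA1, BRCA2 and their partners, 5 of 5 were higher in the BM1 knockdown (median 0.72) and 3 of 5 were lower in the LM2 knockdown (median -0.10). After removal of the GC and length trend 3 of 5 were higher in BM1 (median 0.25). BRCA1, a ubiquitin ligase that promotes resection, stood at 3.95, 7.15, 6.91 and 4.29 FPKM. Its average change over both lines was 0.07 ± 0.33, adjusted p = 0.921, the mean of 0.72 in BM1 and -0.58 in LM2. Several listed genes overlap BRCA1, among them NBR2, and it has a partial pseudogene, so its values are uncertain. BRCA2, which acts on the resected single strands, stood at 0.752, 3.55, 3.01 and 3.39 FPKM. The BM1 control was low for BRCA2 and the other 3 libraries lay close together. PALB2, the bridge between BRCA1 and BRCA2, stood at 3.34, 7.996, 6.07 and 6.71 FPKM. BRIP1, a helicase that binds BRCA1, stood at 4.53, 5.96, 13.4 and 8.15 FPKM, with both LM2 libraries above both BM1 libraries. BARD1, the partner of BRCA1 in the ligase, lay between 3.61 and 6.30 FPKM.

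Among RAD51C, XRCC2 and XRCC3, which act beside BRCA2, and the RAD54 motor proteins, 3 of 5 were higher in the BM1 knockdown (median 0.30) and 2 of 5 in the LM2 knockdown (median -0.07). The BM1 median was -0.23 with the GC and length trend removed, and 2 of 5 were then higher. RAD54L stood at 14.4, 7.02, 6.61 and 7.07 FPKM. Here the BM1 control was the highest library and the other 3 lay close together. RAD54B stood at 4.22, 5.43, 10.1 and 7.26 FPKM, with both LM2 libraries above both BM1 libraries. RAD51C, XRCC2 and XRCC3 lay between 5.15 and 21.2 FPKM, and none of them passed 2-fold in either line.

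Of the checkpoint genes, 4 of 8 were higher in the BM1 knockdown (median -0.04), near the share of all genes, and 2 of 8 in the LM2 knockdown (median -0.16). ATM, the kinase activated by breaks, had the largest BM1 change of the 37 genes, 1.85 on the log2 scale, with levels of 3.71, 16.01, 10.9 and 9.67 FPKM. NPAT and C11orf65 overlap ATM on the opposite strand. ATR, the kinase activated by single-stranded DNA, stood at 2.49, 4.92, 6.35 and 5.52 FPKM, while its partner ATRIP lay between 5.44 and 7.03 FPKM in all 4 libraries. TOPBP1, which activates ATR, stood at 9.86, 26.5, 22.3 and 26.3 FPKM. For ATM, ATR and TOPBP1 the BM1 control was the lowest library. The effector kinases had the other layout, CHEK1 at 25.9, 21.6, 26.6 and 18.5 FPKM, and CHEK2 at 7.74, 4.77, 5.13 and 4.28 FPKM, with both knockdown libraries below both controls. STT3A overlaps CHEK1 on the same strand and CHEK2 has many pseudogene copies, so both are uncertain. TP53BP1, which shields ends from resection, was nearly level at 9.84 to 10.7 FPKM.

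Of the Fanconi anemia genes, 2 of 5 were higher in the BM1 knockdown (median -0.19) and 1 of 5 in the LM2 knockdown (median -0.42). Removing the GC and length trend left 1 of 5 higher in BM1 (median -0.37). FANCI, the partner of FANCD2 in the complex that is ubiquitinated at crosslinks, stood at 31.6, 26.8, 69.3 and 42.9 FPKM, with both LM2 libraries above both BM1 libraries. FANCD2 stood at 11.2, 9.70, 10.1 and 6.48 FPKM, and since it has pseudogene copies its values are uncertain. FANCA, a core complex subunit, stood at 38.5, 26.05, 24.1 and 17.8 FPKM, and both LM2 libraries lay below both BM1 libraries. In the end joining group 2 of 5 were higher in the BM1 knockdown (median -0.26) and 2 of 5 in the LM2 knockdown (median -0.005). The sign was the same in both lines for each of the 5 genes, where 30.9% of all genes had opposite signs. The LM2 changes of XRCC6 (-0.045) and XRCC5 (-0.005) were very small, so their sign there says little. XRCC4, the cofactor of LIG4, stood at 6.57, 10.6, 8.31 and 12.5 FPKM, with both knockdown libraries above both controls. MSH6, which recognises mismatches, stood at 11.5, 11.4, 12.4 and 9.16 FPKM.

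**Figure D2:**
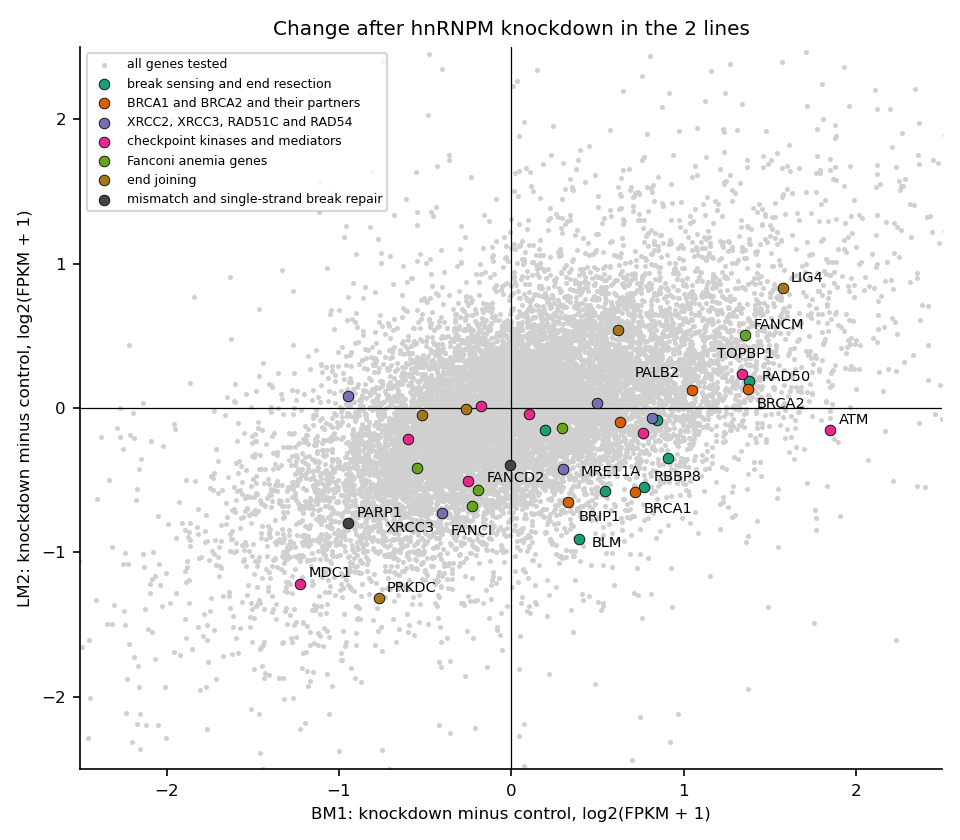
Knockdown minus control in BM1 (x axis) against LM2 (y axis), both in log2(FPKM + 1), for all genes tested (grey) and the 37 repair genes (coloured by role), with 106 genes beyond 2.5 on either axis not drawn. MDC1 and PRKDC lie low on both axes, LIG4 high on both, and BRCA1, RBBP8 and BLM to the right of 0 and below it.

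The signs of the 2 lines' changes were opposite in 17 of the 37 genes (45.9%), against 30.9% of all genes, and in 15 of the 17 the knockdown lay above the control in BM1 and below it in LM2. In 6 genes, MRE11A, NBN, RBBP8, BLM, BRCA1 and BRIP1, the opposite values were both 0.32 or more in size on the log2 scale (16.2%, against 4.52%). All 6 were higher in BM1 and lower in LM2, a layout that 2.78% of all genes had, and none had the reverse layout (against 1.74%). The difference between the lines could not be tested with 1 library per line and treatment. All 6 genes were in the lowest of 3 equal classes of genes by GC content.

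The 37 genes had long, GC-poor transcripts, and the BM1 values moved with GC content. Their longest GENCODE transcripts had a median GC content of 41.5%, against 48.3% over all genes, and 26 of the 37 were in the lowest of the 3 GC classes. Across the 37 genes the BM1 change and GC content had Pearson's r = -0.69 (Spearman's rho = -0.72), and the LM2 change r = -0.30. Across the 13723 genes with a GC value r was -0.38 in BM1 and -0.16 in LM2. Genes share libraries and are not independent, so these values are descriptions.

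In the lowest GC class the median BM1 change was 0.46 over 4575 genes and 0.67 over the 26 repair genes, and 21.5% of all genes in that class were higher by 2-fold or more, against 7 of the 26. In the middle class the medians were -0.12 over all genes and -0.68 over 8 repair genes. In LM2 the lowest class had medians of 0.07 over all genes and -0.15 over the 26. With the trend over GC content and length removed, the median of the 37 genes was -0.08 in BM1 and -0.25 in LM2. Only ATM then remained higher in the BM1 knockdown by 2-fold or more (2.70%, against 5.73% of all genes), and MDC1 and PRKDC were lower by as much (5.41%, against 5.62%). In LM2 the removal left MDC1 and PRKDC lower by 2-fold or more (5.41%, against 3.35%) and none higher (against 4.1%). The 6 genes with opposite values kept LM2 values from -0.45 (NBN) to -0.97 (BLM), while their BM1 values ran from -0.35 (BRIP1) to 0.34 (RBBP8).

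**Figure D3:**
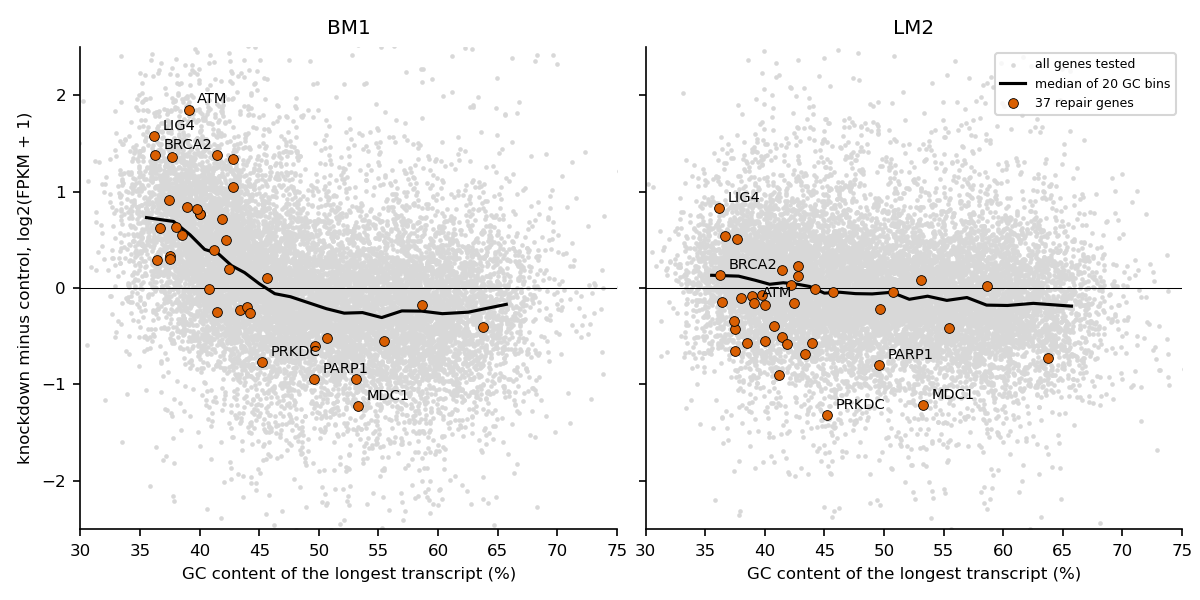
Knockdown minus control in log2(FPKM + 1) against the GC content of the longest GENCODE transcript, in BM1 and in LM2, for all genes tested (grey) and the 37 repair genes, with 114 genes beyond the axes not drawn. The repair genes fall from left to right more steeply in BM1 (r = -0.69) than in LM2 (r = -0.30).

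The second question was how the lines differed. Over both treatments none of the 37 genes passed the test between LM2 and BM1, where 4.35% of all genes did, and 5 of them had an unadjusted p under 0.05 in limma (FANCI, BLM, FANCA, BRIP1 and RAD54B; 13.5%, against 22.4%). The closest was BLM, higher in LM2 by 1.32 ± 0.33 with an adjusted p of 0.0634. With only genes of a mean of at least 5 FPKM tested, BLM passed (adjusted p = 0.0496). FANCI (0.88 ± 0.26, adjusted p = 0.0955) and BRIP1 (0.89 ± 0.30, adjusted p = 0.130) came next among the higher genes. In 9 genes both LM2 libraries lay above both BM1 libraries (24.3%, against 19.4%), namely BLM, BRIP1, FANCI, RAD54B, XRCC3, EXO1, ATR, ATRIP and FANCB, and in 3 both lay below (8.11%, against 21.6%), FANCA, RAD51C and XRCC5.

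Between the 2 control libraries 9 of the 37 genes differed by 2-fold or more (24.3%, against 12.2% of all genes). Higher in the LM2 control were 8 (21.6%, against 6.98%), BLM, BRIP1, ATM, BRCA2, FANCI, TOPBP1, RAD54B and ATR, and RAD54L was lower (2.70%, against 5.26%). At 1.5-fold 21 were higher (56.8%, against 19.1%) and 2 lower (5.41%, against 14.9%), in all 62.2% against 34%. Between the 2 knockdown libraries none of the 37 did, where 9.04% of all genes did (6 at 1.5-fold, 16.2%, against 27.7%), and the largest difference was that of RBBP8, -0.80. The median difference was 0.66 between the controls (0.03 over all genes) and -0.06 between the knockdowns (-0.06 over all genes). With the GC and length trend removed, the median between the controls was 0.27 and only BLM remained past 2-fold (2.70%, against 5.09% higher).

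The BM1 control library enters both the BM1 change and the difference between controls, so the 2 comparisons are not separate evidence. The values side by side were 1.85 and 1.33 for ATM, 1.38 and 1.19 for BRCA2, 1.34 and 1.10 for TOPBP1, and 0.39 and 1.97 for BLM. The BM1 control was the lowest of the 4 libraries in 21 of the 37 genes (56.8%), against 31% of all genes, and the highest in 7 (18.9%, against 29.7%). With the GC and length trend removed it was the lowest in 12 (32.4%), against 27.7%.

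**Figure D4:**
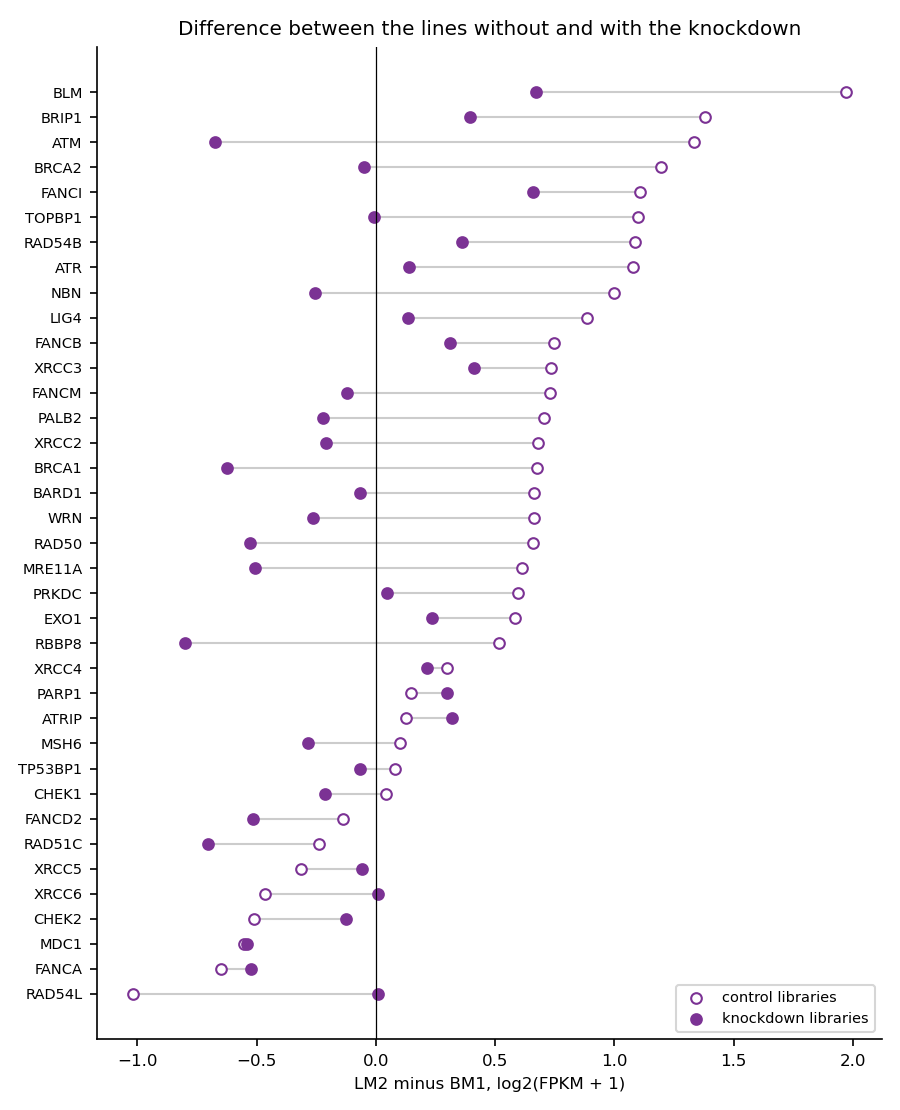
LM2 minus BM1 in log2(FPKM + 1) for each of the 37 genes, in the control libraries and in the knockdown libraries. Of the control points 29 of 37 lie to the right of 0 (78.4%, against 52.2% of all genes), and of the knockdown points 15 of 37 do (40.5%, against 45.3%).

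Other genes of the same pathways were read from a list of 81, of which 80 were tested. Over both lines 4 of them fell and none rose (median -0.30), where 2.76% of all genes fell and 2.71% rose. RMI2, a partner of BLM, stood at 14.5, 4.37, 11.2 and 4.23 FPKM (-1.38 ± 0.26, adjusted p = 0.0231). The mismatch repair gene MSH3 stood at 8.16, 2.97, 9.49 and 2.75 FPKM (-1.34 ± 0.25, adjusted p = 0.0249). In both genes the 2 knockdown libraries lay below the 2 controls. H2AFX, the histone that MDC1 binds once phosphorylated, stood at 93.5, 43.6, 98.5 and 44.6 FPKM (-1.10 ± 0.25, adjusted p = 0.0421). UNG, the uracil DNA glycosylase, stood at 102, 45.5, 52.6 and 24.9 FPKM (-1.10 ± 0.25, adjusted p = 0.0427). The same held for these. With the GC and length trend removed RMI2 (adjusted p = 0.0400) and MSH3 (0.0295) still passed, and H2AFX (0.0663) and UNG (0.0671) did not.

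The largest values upward, RAD17 (1.03), RIF1 (0.71) and RMI1 (0.65), had adjusted p-values of 0.102, 0.167 and 0.280. Between lines 1 of the 80 genes passed the test, XRCC1, the scaffold of single-strand break repair, which was lower in LM2 (-1.12, adjusted p = 0.0456, or 0.0549 with the GC and length trend removed). Of 6 p53 targets tested, RRM2B, a ribonucleotide reductase subunit, rose (3.67, 12.4, 4.64 and 8.99 FPKM, 1.17 ± 0.28, adjusted p = 0.0466, or 0.0943 with the GC and length trend removed), and MDM2 had 1.21 with an adjusted p of 0.0683.

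Genes of the cell cycle were read because many repair genes follow it. Of 25 genes of G1/S and DNA replication 4 fell over both lines and none rose (median -0.74), and 25 of 25 were lower in the LM2 knockdown (against 53.5% of all genes) and 23 of 25 in the BM1 knockdown (against 49.7%). With the GC and length trend removed 2 of the 4 passed. Among them were GINS4, a subunit of the replicative helicase (-1.67 ± 0.27, adjusted p = 0.0166, or 0.0326 with that trend removed), and the nucleotide synthesis genes TK1 (-1.18) and TYMS (-1.13), whose adjusted p-values were then 0.0630 and 0.0654. Of 20 mitotic genes 1 passed, CENPE, a kinetochore motor, which rose (1.39 ± 0.30, adjusted p = 0.0350, or 0.0742 with the GC and length trend removed), and the median was -0.05. The next largest mitotic values were those of CENPF (0.68) and TTK (0.59) upward and of CDC20 (-0.86), AURKB (-0.85) and BIRC5 (-0.64) downward, all with an adjusted p above 0.05. Between lines 1 of these cell cycle genes passed, the nucleotide reductase gene RRM2, which was lower in LM2 (-1.09, adjusted p = 0.0496, or 0.0507 with the GC and length trend removed). The median of the 37 repair genes over both lines was 0.02, beside -0.01 over all genes. With the GC and length trend removed it was -0.14, beside -0.66 for the genes of G1/S and DNA replication and -0.005 over all genes.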

How the data were processed

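Stranded polyadenylated RNA libraries were sequenced from 4 cultures, 1 per line and treatment. The authors deposited 1 table of FPKM values, per the labels. STAR 2.5.3a, Cuffdiff 2.2.1 and GRCh37 are named in the submitters' processing notes. The sources used here do not give the annotation release or the strand setting. The repair genes were picked by name and not by a threshold on these values, but they and the other gene lists were chosen with earlier results of these data known.

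Of 20369 entries, 40 that repeat combinations of values for MUC5AC, ECSCR and COPG2 were left out. Genes with a mean of at least 1 FPKM over the 4 libraries were tested. Values were taken as log2(FPKM + 1). With limma 3.58.1 in R 4.3.3, line and treatment were fitted together (two-sided, Benjamini-Hochberg over all genes tested, adjusted p under 0.05). The fit was first run on simulated data whose noise was drawn from the spread that limma itself had estimated. That run therefore cannot say whether the calls in these libraries are sound. The line pairs the libraries, and the deviations from the treatment means had r = 0.54 within a line across 13928 genes. P-values rest on the spread left after line and treatment, moderated by that of all genes. With these 4 libraries that spread is the difference between the knockdown changes in BM1 and LM2, not a spread between replicates. It may be technical or a true difference in response between the lines, and these cannot be told apart. Within a line, 2-fold on the log2(FPKM + 1) scale was used with no test. Library depth was read as steps of FPKM times transcript length in 1624 low genes, where 35.5% to 44.0% of the values lay within 0.02 of a whole multiple, and is relative only. The depth behind each value in fragments is therefore unknown. GC content and length came from the longest GENCODE 29 transcript by gene ID, and their trend was removed with natural splines of 4 degrees of freedom.

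Values in every library are printed for genes that passed a test, that passed 2-fold in a line or between lines, with the 3 largest average changes in each direction, with opposite changes of 0.32 or more on the log2 scale, and for BRCA1, BRCA2, ATM, ATR, PARP1 and PRKDC. Other genes are given by range, count or, for a few, by value, chosen after their values were seen. Of the other lists, genes that passed the test and the 3 largest changes in each direction are named, except for some that are not reported here. Alternatives were other pseudocounts, filters, scalings and fits, and each library left out.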

Additional observations from a re-analysis of the deposited data

Results flagged for a closer look

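In 15 of the 37 repair genes the knockdown value lay above the control in BM1 and below it in LM2 (2409 of all 13928 genes). For 6 of them both changes were 0.32 or more in size on the log2 scale (16.2%, against 2.78% of all genes). The change in BM1 minus the change in LM2, in log2(FPKM + 1), was 1.318 for RBBP8, 1.301 for BRCA1, 1.3 for BLM, 1.254 for NBN, 1.118 for MRE11A and 0.985 for BRIP1. The difference was not tested, since each line and treatment is 1 library. With the trend over GC content and length removed, the BM1 values of MRE11A, BLM and BRIP1 were -0.12, -0.06 and -0.35, and those of RBBP8, BRCA1 and NBN were 0.34, 0.25 and 0.27.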

How the results depend on the processing

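The knockdown test called 2 repair genes and 762 genes in all. It called 0 and 27 with a pseudocount of 0.1, 1 repair gene with 0.5, 4 with limma-trend, and 427 genes in all with the GC and length trend removed. It called 0 and 0 with no filter, with FPKM rescaled without mitochondrial genes, with quantile normalization and with no replicate block (libraries not paired by line), and 0 to 0 in both counts when each library was left out. At an unadjusted p under 0.05 limma then gave 3735 genes with no filter, 3003 rescaled, 3255 with quantile normalization, 1548 unpaired and 860 to 1943 with a library left out. The test between lines called 0 repair genes, or 1 at a mean of at least 5 FPKM, and 606 genes in all. That count was 216 with a pseudocount of 0.1, 0 with no filter, 102 rescaled, 104 with quantile normalization, 11 with no replicate block, and 6 to 28 with a library left out. A fit with a library left out has no line or treatment term beside the contrast. The causes were not tested. Rescaling without mitochondrial genes moved the median BM1 change of all genes to 0.12.

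At 1.5-fold, the counts were 20 repair genes and 5262 genes within BM1, 8 and 3418 within LM2, 23 and 4738 between controls, and 6 and 3865 between knockdowns. At 2-fold, the 8 repair genes within BM1 became 3 with the GC and length trend removed, and the 9 between controls became 1. With a pseudocount of 0.1, all genes past 2-fold numbered 1824 within LM2, 2636 between controls and 2013 between knockdowns. With a mean of at least 5 FPKM, 722 passed within LM2 and 793 between knockdowns.

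The average knockdown change reversed sign in 22 of the gene results. Rescaled, RAD54B had 0.016 and MRE11A 0.061. With the GC and length trend removed, BRCA1 had -0.20, RBBP8 -0.14, NBN -0.091 and ATR -0.060. With each library left out in turn, values ran from -0.27 to 0.41 for BRCA1, -0.29 to 0.51 for RBBP8, -0.22 to 0.78 for NBN, -0.24 to 0.83 for ATR, -1.24 to 0.73 for BLM, -0.85 to 0.53 for BRIP1, -0.61 to 0.48 for RAD54B, -0.32 to 0.29 for MRE11A, -0.94 to 0.080 for RAD54L and -1.01 to 0.10 for FANCI. For MDC1, LIG4, PRKDC and PARP1 no alternative reversed the sign.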

Other observations

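CDKN1A, the p53-induced inhibitor of the cell cycle, stood at 15.8, 39.7, 28.3 and 18.6 FPKM in the library order used above, above the control in the BM1 knockdown and below it in the LM2 one (average 0.35, adjusted p = 0.631 in limma).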
